A study of Mus musculus with 2 samples.

Results

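The p53 targets of cell death are 10 genes whose products carry out or promote apoptosis, and they were described here by the DNase I hypersensitive sites (DHS) around them in resting B cells. The members are Bax, Bbc3, Pmaip1, Ei24, Apaf1, Fas, Tnfrsf10b, Perp, Aen and Trp53inp1, chosen by name for their role, out of 22350 protein-coding genes on chromosomes 1 to 19 and X. A DHS belonged to a member when it overlapped the gene body or the 50 kb on either side by at least 1 bp, which gave 74 of the 47542 DHS of the deposited peak list. Of these, 21 touched the member's own promoter window, which reaches from 5 kb before to 2 kb past each annotated transcription start site (TSS), 27 touched only the promoter window of another gene, and 26 were distal to all of these windows. The data come from 1 DNaseI library of primary splenic B cells of C57/Bl6 mice, 8 weeks of age, Trp53+/+ and mock-treated, and from 1 input library of the same description. The B cells were enriched on magnetic beads for the surface marker B220, dead cells were removed on a Ficoll gradient, and nuclei were digested with DNase I, an enzyme that cuts DNA where it is not packed in nucleosomes. With 1 library there was no replicate error to set a difference against, so all values are descriptions without a test, and the number of mice behind the library is not given in the sources used here. Sequencing depth is unknown, and the lack of a DHS means that none was called.

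p53 is a transcription factor that is stabilized after DNA damage and binds response elements in promoters, introns and distal regions of its targets. In lymphocytes its activation readily leads to apoptosis, through proteins that permeabilize the mitochondrial outer membrane, through the apoptosome that then activates caspases, and through death receptors at the cell surface. The cells here were not irradiated, so the DHS describe the state of these loci before activation of p53 by damage.

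At B and T cell markers the peak list fitted the label of the cells, while myeloid and erythroid markers were mixed. Of all protein-coding genes, 57% had a promoter DHS. The B cell markers Cd79a, Cd79b, Ms4a1, Cd22, Pax5 and Ptprc each had a promoter DHS, with top scores from 83.97 to 265.27. Of 7 T cell markers only Lck had one, at a score of 92.81, and none was called at the genes of the CD3 chains, Cd4, Cd8a or Cd8b1. Among 6 myeloid markers Itgam, Cd14 and Emr1 had one, with scores from 18.16 to 51.05, while Csf1r, Lyz2 and Mpo had none. Of the erythroid markers Klf1 had one, at 177.81, and Hba-a1 had none. The Klf1 score was above those of Cd79a, Cd79b, Cd22 and Ptprc. The part of other cell types in the DHS of the members was not tested, and in a bulk preparation fewer cells with an open site and less cutting per cell cannot be told apart. The score is the authors' value per peak, of a scale that is not stated, and it is used below to order peaks within this list and in ratios of scores, which are not ratios of accessibility, and over the list it ranged from 5.05 to 619.44 with a median of 32.65.

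The promoters of 9 of the 10 members held a DHS, Perp being the exception. The members' share was 90%, beside 57% of all 22350 protein-coding genes (95% exact binomial interval 56.4 to 57.7, counting error only). The members were chosen by name and are not a random draw, so their share has no interval here. The difference was not tested. Distances and the most upstream TSS refer to protein-coding transcripts throughout, which among the members matters only for Aen, where a noncoding transcript starts further upstream. A DHS lay over the most upstream TSS of 8 members, beside 40.7% of all genes, with Perp and Apaf1 as the members without. Taking the highest-scoring promoter DHS of each gene, the median score was 124 over the 9 members and 101 over the 12747 genes that had one, whose quartiles were 59 and 152. The members lay on both sides of that median. Bbc3 stood at 372.59, followed by Pmaip1 at 204.47, Trp53inp1 at 200.29, Apaf1 at 198.52 and Aen at 124.39, all above the median of all genes. Bax at 85.76, Ei24 at 47.41, Fas at 43.68 and Tnfrsf10b at 24.3 lay below it. The lowest score belonged to a death receptor gene, and the other death receptor gene was next in order from the bottom.

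**Figure D1:**
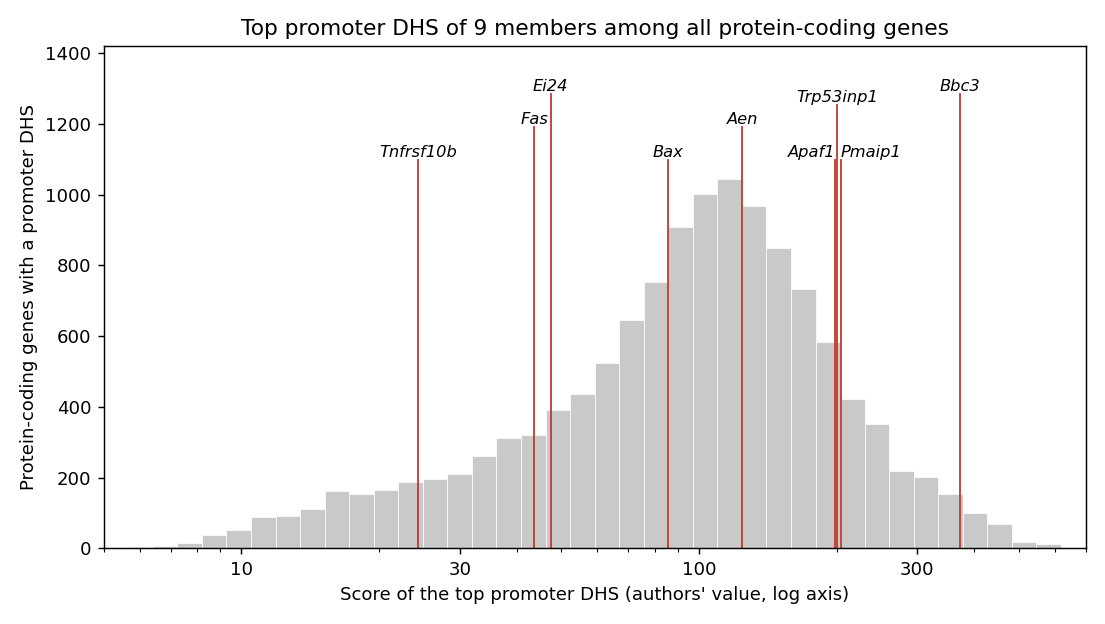
Number of protein-coding genes (vertical axis) by the score of their highest-scoring promoter DHS (horizontal axis, log scale), with a red line for each of the 9 members that had one. Tnfrsf10b, Fas and Ei24 sit in the lower tail, Bax and Aen on either side of the median of 101, Apaf1, Trp53inp1 and Pmaip1 together between 198.52 and 204.47, and Bbc3 at 372.59 in the upper tail.

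The loci differed as much in the number and place of their DHS as in their promoter scores. Each panel of the map of the loci is drawn in the direction of transcription, so that DHS to the left of 0 are upstream of the gene. Dense loci (Bax, Bbc3, Tnfrsf10b) stand beside Perp, where a single DHS was called. No distal DHS was called in 2 of the 10 loci, those of Ei24 and Trp53inp1, beside 40.4% of all genes.

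**Figure D2:**
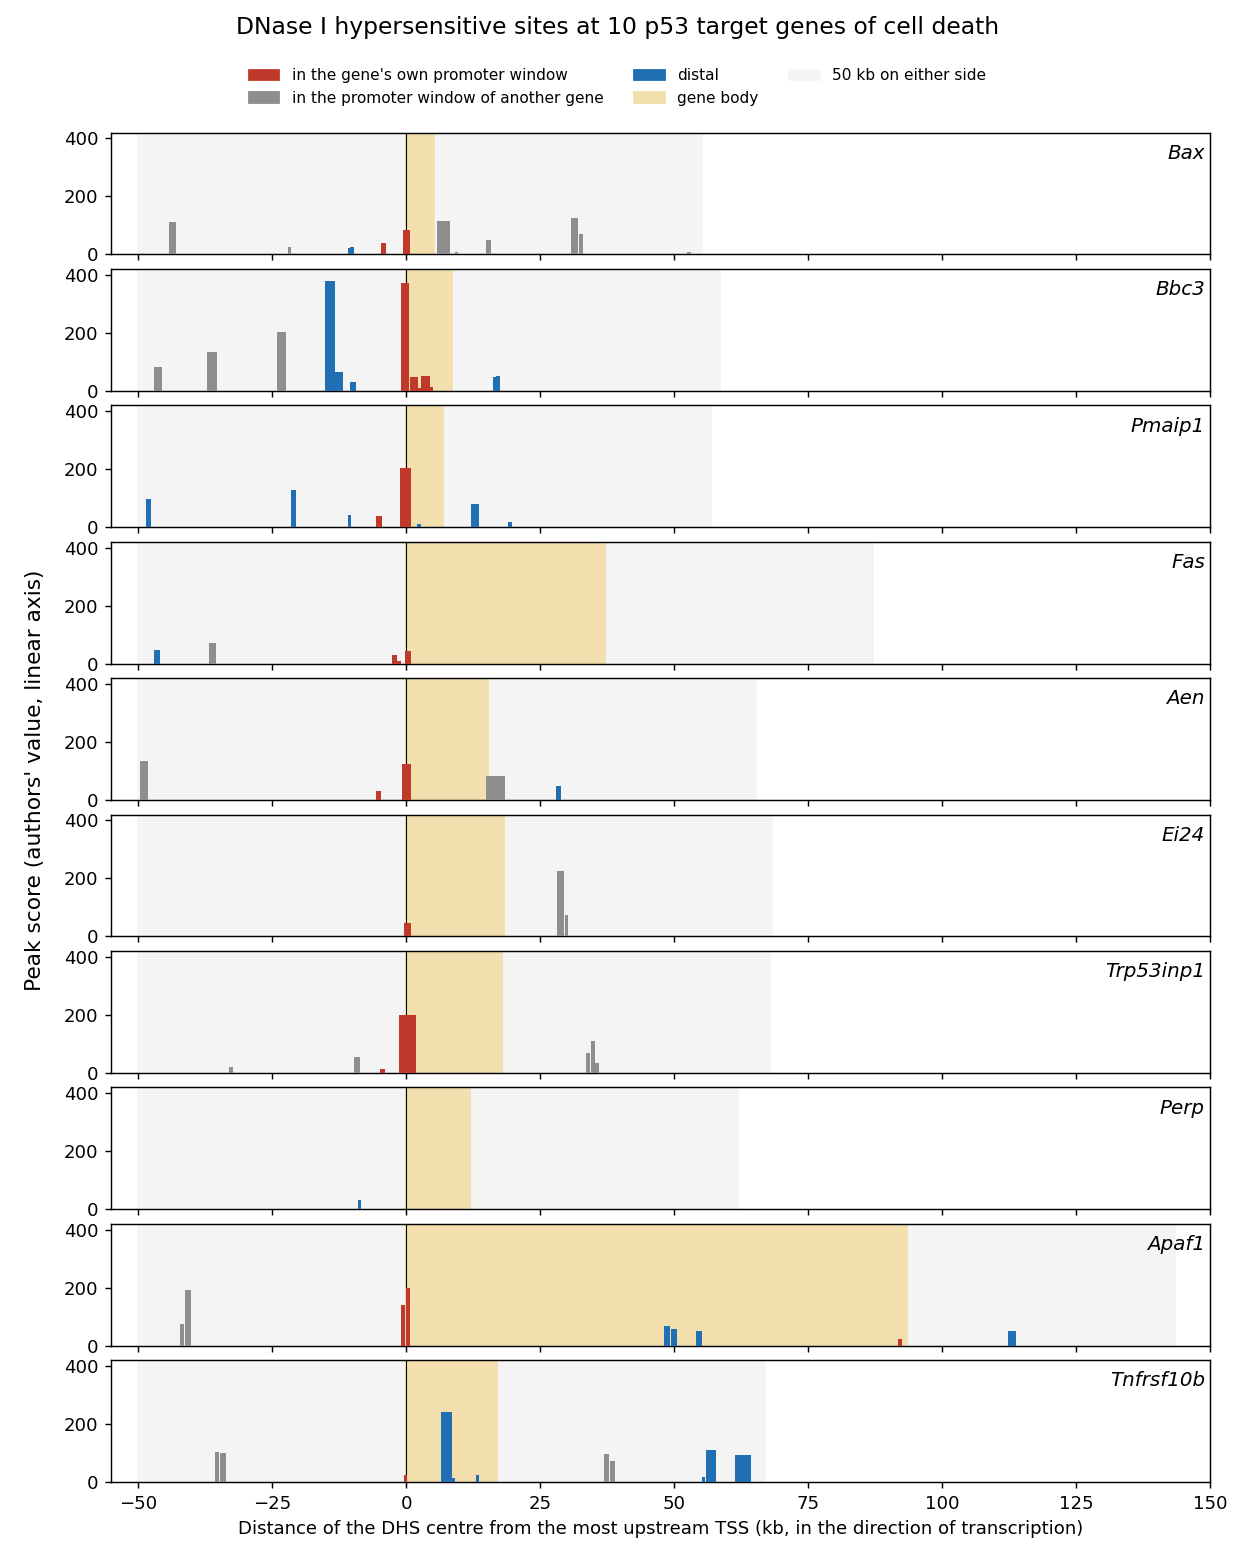
Each DHS of the 10 member loci, drawn as a bar at its distance from the most upstream TSS (horizontal axis, kb) with the peak score as its height (vertical axis, linear), in red for the gene's own promoter window, grey for the promoter window of another gene and blue for distal, with bar widths of the DHS width (the narrowest are widened to be visible). The tallest bars are the promoter and the upstream distal DHS of Bbc3 and the intronic DHS of Tnfrsf10b.

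Among the members that act at mitochondria, Bax encodes a pore-forming member of the Bcl-2 family that permeabilizes the outer membrane. Bax (ENSMUSG00000003873.9, minus strand, chr7:52717065-52722268, mm9) lay in the most gene-rich locus, with 8 other protein-coding genes, and 8 of its 12 DHS were in promoter windows of those neighbours. Its top promoter DHS (chr7:52721602-52722890, 1289 bp) covered both annotated TSSs with a score of 85.76, higher than in 40.2% of genes with a promoter DHS. A second promoter DHS, 4.17 kb upstream, scored 39.61, and the 2 distal DHS, in introns of the neighbour Dhdh at 10.07 and 10.54 kb upstream, scored 23.76 and 21.23. By score the promoter of Bax was thus a middling one, and most of the other DHS of the locus belonged to windows of other genes. The sequence from 250 bases before to 50 after the most upstream TSS (chr7:52722219-52722518, minus strand) is shown because the DHS covers all of it and because it holds words bound by widely expressed factors. Capitals mark the GC box GGGCGG and the E-box CACGTG, on either strand.
Bax promoter: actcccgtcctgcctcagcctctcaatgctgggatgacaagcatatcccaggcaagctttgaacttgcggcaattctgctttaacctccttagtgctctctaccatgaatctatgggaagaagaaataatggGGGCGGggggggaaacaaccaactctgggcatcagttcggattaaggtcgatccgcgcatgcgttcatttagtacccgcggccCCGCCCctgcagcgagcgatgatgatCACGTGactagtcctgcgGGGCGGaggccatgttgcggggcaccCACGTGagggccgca

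Inside the same DHS lay a match to the p53 response element. The search looked for 2 decamers side by side, each with a 4-base core of C, A or T, A or T, and G between 3 purines and 3 pyrimidines, on either strand, with up to 2 mismatches in 20 bases, while the C and the G of both cores had to fit. In the sequences below capitals mark the 2 cores. The Bax match was at chr7:52721944-52721963, 314 bp downstream of the most upstream TSS, in intron 1 of the transcript Bax-201 and exon 1 of Bax-202, with 2 mismatches. With a spacer allowed between the decamers, another match lay 191 bp upstream of the TSS (chr7:52722449-52722469, spacer of 1 base), still inside the DHS. The matches are given on the strand of the gene, and no binding was measured here.
Bax element, intron 1: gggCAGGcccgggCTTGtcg
Bax spaced element, upstream: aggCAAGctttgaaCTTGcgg

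Bbc3 encodes Puma, a BH3-only protein that frees Bax and Bak by binding the anti-apoptotic Bcl-2 proteins. Bbc3 (ENSMUSG00000002083.6, plus strand, chr7:16894965-16903554) had the highest promoter score of the members, 372.59 (chr7:16894105-16895579, 1475 bp), higher than in 98.2% of genes with a promoter DHS. Another 4 DHS followed inside the gene, with scores of 46.71, 11.07, 52.07 and 13.95, so that all 3 annotated TSSs were covered. These 5 promoter DHS took up 89.4% of a stretch of 5875 bp. Of the members only Bbc3 had at least 5 promoter DHS, as 2.09% of all genes did. Its locus held 13 DHS in all, the most of the members. The promoter sequence (chr7:16894715-16895014, plus strand) is shown for the member with the strongest promoter, with capitals for GGGCGG, including a pair of overlapping copies, and for AGGGGGC, a short word from the CTCF motif.
Bbc3 promoter: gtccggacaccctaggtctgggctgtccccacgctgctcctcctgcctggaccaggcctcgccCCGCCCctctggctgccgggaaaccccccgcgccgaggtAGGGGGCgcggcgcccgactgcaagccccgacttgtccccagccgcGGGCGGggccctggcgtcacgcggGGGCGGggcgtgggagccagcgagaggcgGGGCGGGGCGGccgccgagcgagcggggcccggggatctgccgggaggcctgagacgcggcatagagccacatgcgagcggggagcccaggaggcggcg

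The highest-scoring DHS of any member locus lay outside the annotated promoter windows. It was a distal DHS of Bbc3, at chr7:16879835-16881662, 14.22 kb upstream of the TSS and intergenic. It was 1828 bp wide and scored 377.38, higher than 99.7% of all peaks and 1.01 times the promoter of Bbc3. It was followed by distal DHS at 12.49 kb upstream with 65.08 and at 9.84 kb upstream with 29.91, while 2 downstream DHS, in an intron of Sae1 at 16.57 and 17.14 kb, scored 48.02 and 51.74. The promoter and this upstream DHS of Bbc3 were the strongest pair of any member locus. The locus holds 3 other protein-coding genes, and a distal DHS is not assigned to a target here. An unannotated start at these DHS was not looked for. The central 300 bases of the 377.38 DHS (chr7:16880599-16880898, plus strand) are shown with GGGCGG, on the minus strand, in capitals.
Bbc3 upstream DHS, centre: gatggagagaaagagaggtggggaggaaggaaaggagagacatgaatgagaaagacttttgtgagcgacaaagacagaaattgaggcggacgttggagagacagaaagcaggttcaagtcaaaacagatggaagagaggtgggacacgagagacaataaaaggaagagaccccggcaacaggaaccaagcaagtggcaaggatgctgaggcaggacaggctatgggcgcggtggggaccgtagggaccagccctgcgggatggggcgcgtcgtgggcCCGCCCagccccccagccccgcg

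Pmaip1 encodes Noxa, a BH3-only protein that binds the anti-apoptotic protein Mcl1. Pmaip1 (ENSMUSG00000024521.7, plus strand) lies on chromosome 18, with 0 other protein-coding genes within the locus. Its top promoter DHS was 2206 bp wide and scored 204.47, higher than in 88.1% of genes with a promoter DHS, and a second promoter DHS scored 37.01. A match to the p53 element with 2 mismatches lay 164 bp upstream of the TSS, inside this DHS. Without any promoter of another gene nearby, 6 of its 8 DHS were distal. The strongest were at 21.05 kb upstream with a score of 128.13, at 47.97 kb upstream with 98.44 and at 12.82 kb downstream with 78.95, all intergenic. The weakest, 10.11, lay in intron 2 of the gene. Pmaip1 and Tnfrsf10b had the most distal DHS of the members, 6 each, and 88.5% of all genes had fewer.

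Ei24 encodes a membrane protein of the endoplasmic reticulum that was identified as a p53-induced growth suppressor. Ei24 (ENSMUSG00000062762.7, minus strand, chr9:36586740-36604938) had 3 DHS. Its promoter DHS (chr9:36604016-36605394, 1379 bp) covered both TSSs with a score of 47.41, higher than in 19.2% of genes with a promoter DHS. The other 2 DHS, at the promoters of Stt3a and Gm16881, scored 74.76 and 226.48, so both neighbouring DHS scored above that of Ei24 itself.

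Apaf1, the scaffold that binds cytochrome c and assembles the apoptosome, is the longest of the member genes at 93.5 kb (ENSMUSG00000019979.6, minus strand, chr10:90452056-90545515). Its start was flanked by 2 promoter DHS. The first (chr10:90544697-90545507, 811 bp) scored 198.52 and the second (chr10:90545744-90546508, 765 bp) scored 141.4, with a gap of 236 bp between them. The most upstream TSS lay in that gap, 8 bp from the edge of the first DHS, so Apaf1 counts as uncovered only by this margin. Both DHS were also in the promoter window of Ikbip, the neighbouring gene. Another promoter DHS, at 21.49, lay near the 3′ end of the gene, in the promoter window of a short transcript with a retained intron.

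Inside Apaf1, the distal DHS were in intron 16 (67.09 and 56.02) and intron 17 (51.82) of the longest transcript, between 48.68 and 54.64 kb downstream of the TSS. A further distal DHS, 113.02 kb downstream in an exon of Anks1b, scored 49.78. None of these held an unspaced p53 element with up to 2 mismatches, and a match with a spacer of 10 bases lay in the intron 16 DHS of 56.02. The Apaf1 element in intron 20 was the only unspaced match without a mismatch in any of the 10 loci. It lay at chr10:90481411-90481430, and the nearest DHS was 8.92 kb away. The closest unspaced fit to the consensus among these genes was thus outside the accessible sites called in resting B cells.
Apaf1 element, intron 20: agaCAAGcttgaaCTTGctc

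Fas encodes the death receptor for Fas ligand. Fas (ENSMUSG00000024778.6, plus strand, chr19:34365149-34402260) had 3 promoter DHS of low score. The top one (chr19:34364994-34366052, 1059 bp), over the TSS and into intron 1, scored 43.68, higher than in 17.4% of genes with a promoter DHS, and the others scored 28.57 and 7.97 at 2.08 and 1.32 kb upstream. Past the top promoter DHS none was called for 86.2 kb (chr19:34366053-34452260), which takes in nearly all of the 37.1 kb gene and the whole downstream flank. The single distal DHS, in an intron of Acta2 at 46.41 kb upstream, scored 47.06, or 1.08 times the promoter. A p53 element with 2 mismatches lay in intron 1, 1.71 kb downstream of the TSS (chr19:34366854-34366873), and is shown because it fell 802 bp outside the promoter DHS.
Fas element, intron 1: gggCATGtacaaaCATGtca

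Tnfrsf10b encodes the receptor for the death ligand TRAIL. Tnfrsf10b (ENSMUSG00000022074.5, plus strand, chr14:70167279-70184210) had the weakest promoter of the 9, a DHS of 553 bp (chr14:70166965-70167517) with a score of 24.3, higher than in 7.96% of genes with a promoter DHS. It lies in the promoter window of Gm16867 as well. In contrast, a DHS of 2019 bp centred in intron 3 (chr14:70173828-70175846), 7.56 kb downstream of the TSS, scored 242.0, higher than 98.1% of all peaks. It overlapped 1 exon. The intronic score was 9.96 times the promoter score, and with Tnfrsf10b only 12 genes, 0.0941% of the 12747 with a promoter DHS, had as high a ratio of a distal DHS in the gene body to the promoter, a ratio looked up after the values were seen. In rank the DHS inside the gene stood far above the one at its annotated start.

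Beyond the 3′ end of Tnfrsf10b, distal DHS at 55.45, 56.83 and 62.83 kb downstream of the TSS scored 18.87, 109.88 and 93.01. Inside the gene, further distal DHS in intron 5 and intron 7 scored 13.59 and 23.59. The promoter (chr14:70167029-70167328, plus strand) and the central 300 bases of the intronic DHS (chr14:70174688-70174987, plus strand) are shown together because of this contrast. Neither holds any of the 6 short words that were searched, so no base is in capitals. The second is labelled intronic by the centre of the DHS, which overlaps 1 exon, and any exon bases in it are not marked. Annotation of the start rests on 1 TSS, and another start was not looked for.
Tnfrsf10b promoter: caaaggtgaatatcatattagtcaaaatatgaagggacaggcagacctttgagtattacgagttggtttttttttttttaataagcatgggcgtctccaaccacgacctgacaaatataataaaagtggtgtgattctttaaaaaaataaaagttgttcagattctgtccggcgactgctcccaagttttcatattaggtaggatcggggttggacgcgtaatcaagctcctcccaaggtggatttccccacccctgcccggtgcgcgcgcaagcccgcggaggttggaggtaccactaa
Tnfrsf10b intronic DHS, centre: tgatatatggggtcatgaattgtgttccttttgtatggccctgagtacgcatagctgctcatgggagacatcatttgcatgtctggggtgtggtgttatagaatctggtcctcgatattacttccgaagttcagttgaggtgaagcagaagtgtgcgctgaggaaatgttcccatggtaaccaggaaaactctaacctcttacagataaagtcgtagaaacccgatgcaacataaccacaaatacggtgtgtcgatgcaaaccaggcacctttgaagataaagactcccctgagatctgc

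Perp, a membrane protein of desmosomes that is induced by p53 in apoptosis, was the member without a promoter DHS. Perp (ENSMUSG00000019851.7, plus strand, chr10:18564877-18576879) had 1 DHS in its whole locus of 112.0 kb, an intergenic one of 491 bp at 8.69 kb upstream (chr10:18555938-18556428) with a score of 32.65. At most 1 DHS was called in the loci of 29.4% of all genes, so an almost empty locus is not rare. From that DHS onward none was called for 70.5 kb (chr10:18556429-18626879), which includes the whole gene. The promoter of Perp nevertheless had the base composition of a CpG-rich promoter, with 63.4% GC and 0.69 of the CpG count that its C and G content would give by chance in the 1000 bases around the TSS. Of the 8699 CpG-rich promoters, 14.5% lacked a promoter DHS. Repeated sequence was low there, as 0.689% of the 6971 words of 31 bases in the promoter window occur more than once in the assembly, beside 4.52 to 13.5% for the other members. The promoter sequence (chr10:18564627-18564926, plus strand) is shown with GGGCGG, on either strand, in capitals.
Perp promoter: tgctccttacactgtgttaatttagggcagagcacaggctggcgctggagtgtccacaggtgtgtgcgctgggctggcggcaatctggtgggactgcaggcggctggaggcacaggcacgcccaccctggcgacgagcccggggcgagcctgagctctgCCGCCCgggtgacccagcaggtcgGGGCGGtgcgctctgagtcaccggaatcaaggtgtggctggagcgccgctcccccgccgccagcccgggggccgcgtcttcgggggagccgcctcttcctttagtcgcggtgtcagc

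Perp also carried matches to the p53 element away from any DHS. Its locus held 5 unspaced matches, the most of the members. Of these, 1 was in the promoter window, 2.03 kb upstream of the TSS (chr10:18562840-18562859) and 6.41 kb from the DHS. Another was in intron 1, 2.96 kb downstream (chr10:18567823-18567842) and 11.39 kb from the DHS. Both are shown as elements close to a TSS at which no DHS was called.
Perp element, upstream: attCTAGcccaggCTTGccc
Perp element, intron 1: gggCAAGctctggCATGtca

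Aen encodes a nuclease that enhances apoptosis and DNA fragmentation. Aen (ENSMUSG00000030609.12, plus strand, chr7:86040740-86056095) had a promoter DHS of 1581 bp (chr7:86040120-86041700) over 5 of its 6 TSSs, with a score of 124.39, higher than in 63.4% of genes with a promoter DHS. A second one, 5.16 kb upstream and also in the promoter window of Mir7-2, scored 31.21. The only distal DHS, 28.52 kb downstream, scored 49.71. A wide DHS of 3540 bp at the promoter of Isg20, scoring 82.33, reached into the 3′ end of Aen. Its promoter score was the median of the 9 members.

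Trp53inp1 encodes a stress-induced nuclear protein that interacts with p53 and promotes cell death. Trp53inp1 (ENSMUSG00000028211.5, plus strand, chr4:11083578-11101526) had the widest promoter DHS of the members, 3058 bp (chr4:11082316-11085373), over 3 of its 4 TSSs. It scored 200.29, higher than in 87.4% of genes with a promoter DHS, and a second promoter DHS 4.40 kb upstream scored 14.67. Its other 5 DHS were in promoter windows of neighbours, among them Ccne2 with 67.75, 108.98 and 34.88. All 7 DHS of the locus were thus in promoter windows.

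Over the 10 loci the median number of DHS was 7.5, beside 5 over all protein-coding genes with quartiles of 1 and 9. Bbc3 (13), Bax (12), Tnfrsf10b (11), Apaf1 (9), Pmaip1 (8) and Trp53inp1 (7) lay above that median, Fas and Aen equalled it with 5 each, and Ei24 (3) and Perp (1) lay below. Per 100 kb of locus, which takes out gene length, the median was 5.29 for the members and 3.38 for all genes, and Ei24 (2.54) and Perp (0.89) were the members below. These loci total 1232 kb, of which 6.62% was covered by DHS, beside 1.67% of chromosomes 1 to 19 and X as a whole. That figure for the genome includes gene deserts, and 27 of the 74 DHS were in promoter windows of other genes, so the coverage also counts their neighbours.

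**Figure D3:**
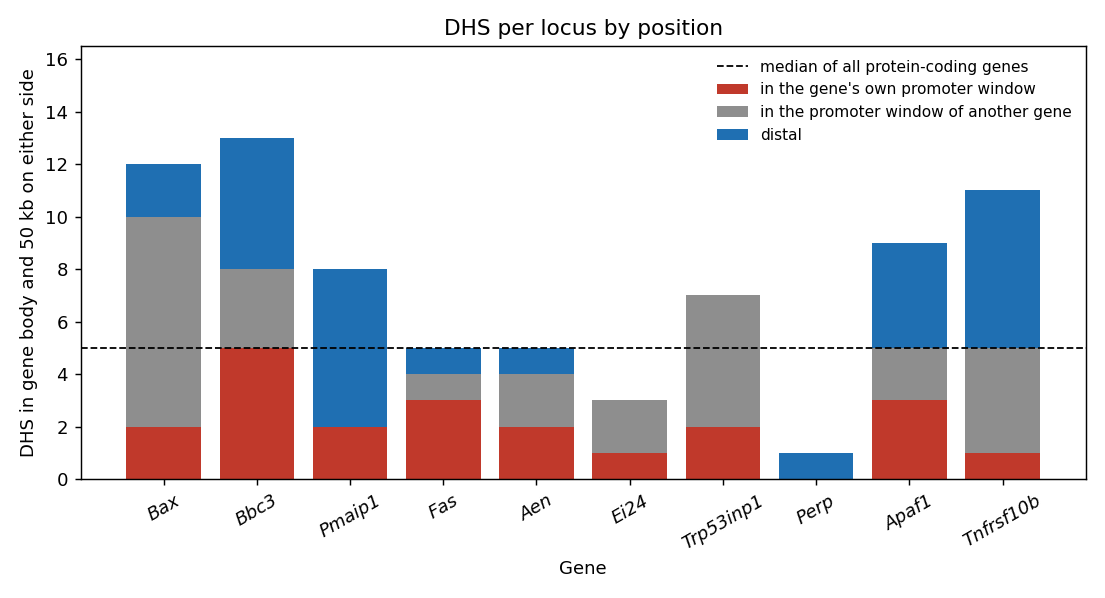
Number of DHS (vertical axis) in the gene body and 50 kb on either side of each member (horizontal axis), stacked by position, with the median over all protein-coding genes as a dashed line at 5. Of the members, 6 rise above the line, and grey and blue together outnumber red in every locus but that of Fas.

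The 26 distal DHS were spread over 8 loci and scored from 10.11 to 377.38 with a median of 49.7, beside a median of 24.3 over all 24945 distal DHS. Of the 26, 18 reached the median score of the whole list, as 36.1% of all distal DHS did. Their median width was 938 bp, beside 602 bp for all distal DHS. By annotation, 13 were intergenic, 12 in introns and 1 in an exon, and 7 lay inside the member's own gene, in Apaf1, Tnfrsf10b and Pmaip1. A distal DHS scored above the top promoter DHS in 3 of the 9 loci with a promoter DHS, those of Tnfrsf10b, Fas and Bbc3, beside 20.6% of the 12747 genes with one. The ratio of these scores was 9.96 in Tnfrsf10b, 1.08 in Fas and 1.01 in Bbc3, and it was below 1 in Bax (0.28), Apaf1 (0.34), Aen (0.40) and Pmaip1 (0.63).

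**Figure D4:**
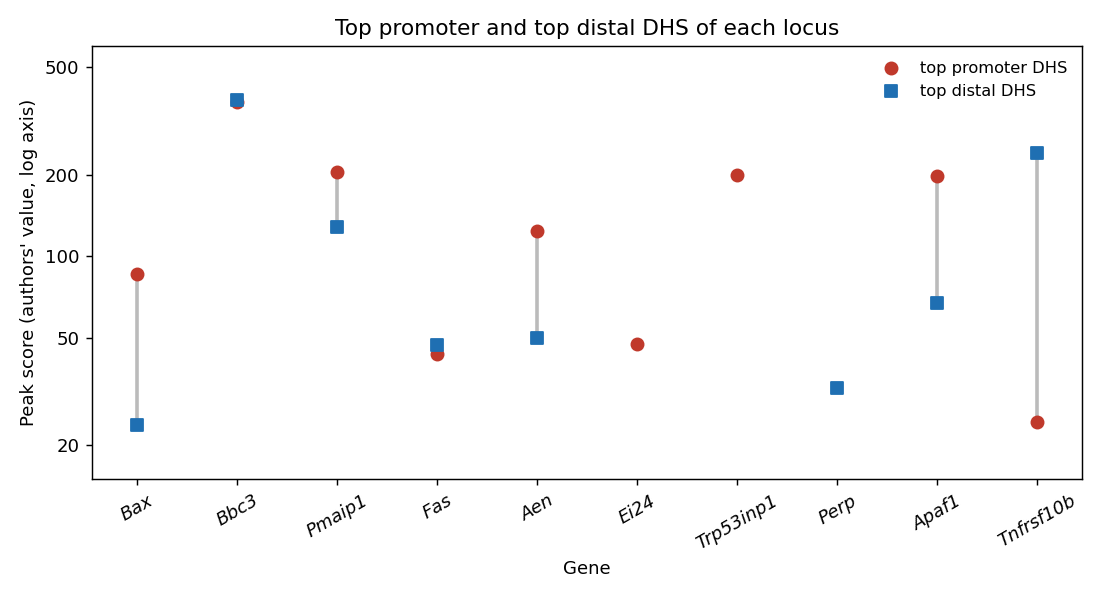
Score (vertical axis, log scale) of the top promoter DHS (red circles) and of the top distal DHS (blue squares) of each member locus (horizontal axis), joined by a line where both were called. Tnfrsf10b is the locus with the distal square far above the circle (242.0 against 24.3), Ei24 and Trp53inp1 have no square and Perp has no circle.

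All 10 loci held at least 1 match to the p53 element, as did 73.9% of the loci of all genes. The members' loci held 21 in all or 17 per Mb, beside 9.73 per Mb over chromosomes 1 to 19 and X. The genome rate includes gene deserts and the members were chosen as p53 targets, and the difference was not tested. A match lay in the promoter window of 4 members (Bax, Pmaip1, Fas and Perp), beside 11.1% of all genes. Inside a DHS lay 2 of the 21, those of Bax and Pmaip1, beside 1.96% of all 25673 matches and with 6.62% of the loci covered by DHS. Both were in a promoter DHS, as in 1.95% of genes with a promoter DHS. The other 19 were between 711 and 53002 bp from the nearest DHS. With a spacer of 1 to 15 bases, 9 of 265 matches lay inside a DHS, beside 2.15% of all such matches, and these were 3 in the locus of Fas and 2 each in the loci of Bax, Pmaip1 and Apaf1.

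Allowing 3 mismatches, a setting added after the values were seen, put a match inside a promoter DHS of 5 members, beside 9.55% of genes with a promoter DHS. The members joining Bax and Pmaip1 were Bbc3, Aen and Ei24. The summed length of a gene's promoter DHS had a median of 2368 bp over the 9 members with one and 1792 bp over all genes with one, and the part of this length in the count was not tested. The Bbc3 match lay 120 bp upstream of the TSS in the DHS that scored 372.59 (chr7:16894835-16894854), the Aen match 19 bp downstream of the first TSS of its protein-coding transcripts (chr7:86040823-86040842), and the Ei24 match 227 bp downstream in intron 1 (chr9:36604701-36604720). They are shown on the strand of the gene, cores in capitals, to set them beside the Bax element. The 10 matches inside a DHS at this setting, of 89 in the loci, also included 2 in the distal DHS of Fas, 1 in the single DHS of Perp, 1 in the distal DHS of Tnfrsf10b that scored 109.88 and 1 in a DHS of the Bax locus that scored 9.27.
Bbc3 element: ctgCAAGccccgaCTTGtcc
Aen element: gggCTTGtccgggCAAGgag
Ei24 element: tggCAGGccggagCTAGttc

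Of the 10 member promoters, 7 were CpG-rich (a GC content of 55% or more and 0.6 or more of the CpG count expected from base content, over 1000 bases), beside 38.9% of all genes, and of these 7 all but Perp had a promoter DHS, as 85.5% of CpG-rich genes did. Fas, Aen and Tnfrsf10b were not CpG-rich and each had a promoter DHS, beside 38.9% of the other genes. Aen (53.5% GC, 0.84 of the expected CpG count) and Tnfrsf10b (52.0%, 0.69) missed only the limit on GC content. Fas (55.6%, 0.43) missed only the limit on the CpG count. Within 250 bases before to 50 after the most upstream TSS, on either strand, GGGCGG occurred in 8 members (44% of all genes), all but Aen and Tnfrsf10b. CACGTG occurred in Bax, Fas and Trp53inp1 (7.78% of all genes), AGGGGGC, which can overlap GGGCGG, in Bbc3, Fas and Apaf1 (12.2%), and CCAAT in Aen and Trp53inp1 (37.9%). TATAAA (13.4%) and GAGGAAGT, a word from the PU.1 motif (3.13%), were in no member promoter. These words are matches of letters only.

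In the central 300 bases of the 26 distal DHS, GGGCGG occurred in 5, beside 7.44% of all distal DHS, and CACGTG in 3, beside 5.33%. CCAAT was found in 10 (31.2% of all distal DHS), TATAAA in 6 (13.6%), AGGGGGC in 2 (6.55%) and GAGGAAGT in 1 (4.22%). The distal DHS were thus mixed in these words, as the promoters were.

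Of 24 other genes of the same pathways, listed by name, 24 had a promoter DHS, beside 57% of all protein-coding genes. Their median top score was 123, close to the 124 of the members and beside 101 over all genes with one. The 24 were 10 other p53 targets with a role in cell death, with a median of 116, and 14 genes of the apoptotic machinery, with a median of 123. The highest scores were those of Shisa5 (382.35), which encodes a p53-induced protein of the endoplasmic reticulum, Ripk1 (265.01), a kinase of death receptor signalling, and Casp9 (212.0), the initiator caspase of the apoptosome. The lowest were those of Phlda3 (30.44), a p53-induced inhibitor of Akt, Xiap (46.64), an inhibitor of caspases, and Casp6 (53.11), an executioner caspase. Tnfrsf10b, at 24.3, lay below the lowest of these 24 genes and Bbc3, at 372.59, was exceeded only by Shisa5. Perp was the single gene of the members and these lists together without a promoter DHS. A promoter DHS was lacking at 14.5% of all CpG-rich promoters, a class that includes Perp.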

How the data were processed

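The authors deposited a peak list for the DNaseI library, with start, end and score per peak. The score is the authors' value, on a scale that is not stated. Peak names are those of the caller MACS, whose version and settings for this library are not given in the sources used here. The submitters' processing notes name BWA 0.6.2, SAMtools and the build mm9, without a role. No read counts were used, so depth is unknown, and the input library was not analysed here. Peak calls depend on the depth and the threshold of the caller, and peaks close together may be split or joined by it.

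Peaks were assigned to genes of GENCODE M1 on mm9 (NCBI build 37) with Python 3.11.15, numpy 2.4.6, scipy 1.17.1 and pysam 0.24.0, and figures were drawn with matplotlib 3.10.9. Chromosomes 1 to 19 and X hold 47474 of the peaks, and 1 peak of the list passed a chromosome end. Positions count from 1, and intron numbers are those of the longest transcript. A promoter table on a later build was not used. Members and lists were chosen with earlier results of these data known. Some listed marker genes are not reported here. Named are all members, their top promoter DHS and the 3 distal DHS of highest score, elements with at most 1 mismatch or inside a DHS (those of other settings by their locus or in full), and the 3 highest and 3 lowest other pathway genes, besides further DHS of a locus described in full. The Fas and Perp elements and those given in full with a spacer or 3 mismatches were named after their values were seen. The most upstream TSS is that of protein-coding transcripts. The search for elements and the count of repeated words were checked on simulated data. Alternatives were a score threshold, other windows and flanks, merging, and other settings of the element.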

Additional observations from a re-analysis of the deposited data

How the results depend on the processing

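The count of 9 members with a promoter DHS became 8 when peaks under the median score were dropped, as Tnfrsf10b joined Perp, and was 9 with 1 kb on each side of the TSS, with the peak centre in the window and with protein-coding transcripts only. The 27 top promoter scores recomputed for single members did not change. Of 23 recomputed main results, 14 counted as unchanged, which means within 1.5 times for a count, inside its 95% interval for the share of all genes and equal for the median score. Among these were DHS in the member loci, 74, with 55 after merging and 54 at the median score, and distal DHS, 26, with 18 at the median score and 29 by peak centre. The share of all genes with a promoter DHS moved from 57% to 50.3% at the median score and 53.7% with 1 kb windows. DHS in the member loci fell to 39 with flanks of 10 kb and rose to 128 with 100 kb, and distal DHS fell to 13 with flanks of 10 kb, as these flanks take in less or more sequence. Counting the 27 DHS in promoter windows of other genes as distal gave 53. The 2 of 21 p53 elements inside a DHS became 0 of 1 with at most 1 mismatch, 9 of 265 with a spacer of 1 to 15 bases and 10 of 89 with at most 3 mismatches, the last chosen after the data were seen. Over all chromosomes analysed the share inside a DHS was 1.96%, and 1.77%, 2.15% and 2.19% at these settings. No paired analysis was possible because the series has 1 DNaseI library and no replicates, and no replicate could be left out. Without depth, a missing DHS cannot be told from one missed for lack of reads.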
